A study of Mus musculus with 14 samples.

Results

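The 9 genes listed here have parts in lipid uptake, lipid transfer or fatty acid metabolism. They include the lipoprotein receptor gene Scarb1, the lipase genes Lpl and Lipg, and the lipase anchor gene Gpihbp1. Fabp4 and Fabp5 encode fatty acid binding proteins. Pltp and Abca1 are lipid transfer and efflux genes, and Cyp4v3 is a fatty acid hydroxylase gene. The 9 were picked by name for these functions, with earlier results of these data known. Of the 9, 8 were matched to a target by their RefSeq transcript, and all 8 were among the 14168 targets with enough reads to be tested, out of 23930 in the files. Fabp5 was matched to no target and is not analysed here.

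The RNA came from liver sinusoidal endothelial cells (LSECs) of wild-type female C57BL/6J mice, sorted for dim CD45, high STAB2 and high CD146. The aged group holds 7 libraries from mice of 10 to 11 months and the young group 7 libraries from mice of 8 to 10 weeks. Experiment 1 gave 3 libraries per age and experiment 2 gave 4 per age, and a library is named by its age, experiment and number (aged 2.4). Whether each library is a separate mouse is not given in the sources used here, so p-values measure the spread between libraries, which may be technical.

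LSECs form a wall with open pores and no continuous basement membrane, so lipoproteins pass from the blood to the hepatocytes behind it. In most capillaries GPIHBP1 carries lipoprotein lipase to the luminal surface, where the enzyme splits triglycerides, and endothelial lipase, the product of Lipg, acts mainly on the phospholipids of high density lipoprotein (HDL). SR-B1, the product of Scarb1, takes up cholesteryl ester from HDL, ABCA1 loads cholesterol and phospholipid onto apolipoprotein A-I, and PLTP moves phospholipids between lipoproteins.

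Each library held 6710403 to 13977361 gene reads. All 12 LSEC markers looked up were read in each library. Fcgr2b lay at 18.2 to 63.5 CPM (reads scaled to a common library size), the lectin gene Clec4g at 6490 to 12390 CPM and the sorting antigen gene Stab2 at 1653 to 2372 CPM. In aged LSECs 10 of the 12 were lower and 2 higher, with 0 past the threshold by edgeR and 3 at an unadjusted p under 0.05. Those were Lyve1 (0.623-fold), Mcam, the gene of the sorting antigen CD146 (0.678-fold), and Fcgr2b (1.49-fold). Without aged 1.3 the split was 7 lower and 5 higher. Targets of taste, vomeronasal and olfactory receptors, which endothelium does not use, drew 0.146 to 3.18% of gene reads. Libraries differed in reads from other liver cells. The summed hepatocyte markers of aged 1.3 reached 8490 CPM without scaling, against 456 to 1970 CPM in the other 13 libraries, and its B cell markers (384 CPM) and Kupffer cell and macrophage markers (349 CPM) were the highest too. Without aged 1.3, 6 of those 9 hepatocyte markers were lower in aged LSECs, where with it 8 were higher.

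Of the 8 genes, Cyp4v3 alone passed the test, with higher reads in aged LSECs. Pltp was higher by nearly as much, in every aged library, and did not pass. For comparison, 0.0776% of all tested targets passed as higher in aged LSECs (0.0847% as lower and 0.162% in either direction). Lpl had the largest fold change on few reads, and Fabp4 was lower in aged LSECs without passing. Scarb1 was lower mainly in experiment 1, also without passing, and the aged and young means of Gpihbp1 lay close together. The median log2 fold change (aged over young) of the 8 genes was 0.43, against −0.002 over all tested targets, and 5 of the 8 were above 0, as were 7022 of 14168 targets. An unadjusted p under 0.05 was found for 4 of the 8, 3 higher and 1 lower, where 6.77% of all targets had one (3.43% higher and 3.34% lower). The 8 genes are too few, and were chosen with earlier results known, for these counts to be read as a property of the group.

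**Figure D1:**
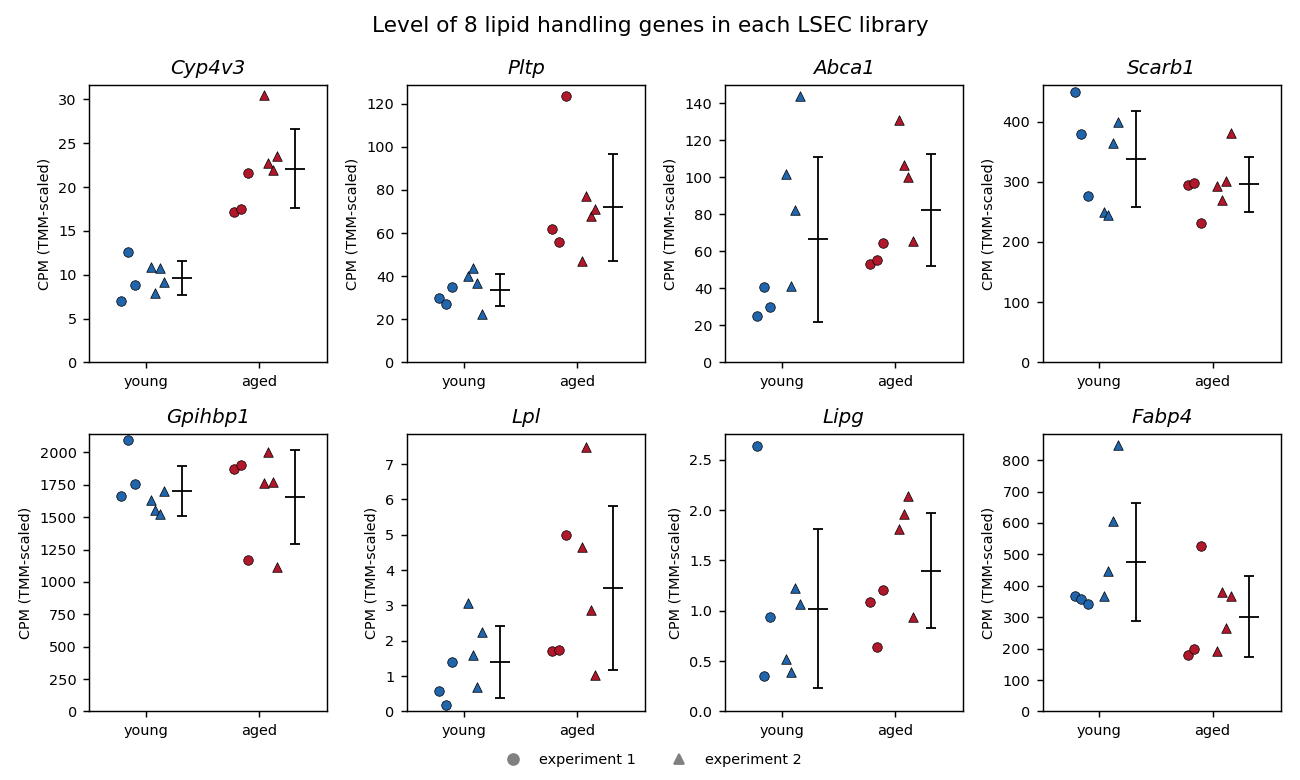
CPM after TMM scaling (vertical axis, starting at 0, a separate scale per gene) of 8 lipid handling genes in 7 young (blue) and 7 aged (red) libraries, circles for experiment 1 and triangles for experiment 2. Black lines are the mean and SD of each age. The aged and young points of Cyp4v3 and Pltp do not overlap, while those of the other 6 genes do.

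Cyp4v3 encodes the mouse counterpart of human CYP4V2, a cytochrome P450 that hydroxylates fatty acids at the end of the chain and whose loss causes a retinal dystrophy with lipid crystals. Its level in the aged libraries ran from 17.1 CPM at the lowest through a median of 21.9 CPM to 30.5 CPM in aged 2.1. In the young libraries the lowest was 6.95 CPM, the median 9.17 CPM and the highest 12.6 CPM in young 1.2. No aged library overlapped a young one. Cyp4v3 rose 2.28-fold with age (95% interval 1.72 to 3.02). Its mean was 9.59 ± 1.95 CPM when young and 22.1 ± 4.46 CPM when aged (SD, n = 7 each). The log2 fold change was 1.19 ± 0.189 (SE) with an adjusted p of 0.0215 by edgeR's quasi-likelihood test, rank 13 of all targets. Its target drew 60 to 276 reads per library. The exact permutation of its log2 CPM within the experiments gave p = 0.00143, the smallest this design allows.

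The rise of Cyp4v3 was seen in both experiments. In experiment 1 the aged mean was 18.7 ± 2.52 CPM and the young mean 9.46 ± 2.90 CPM (n = 3 each), 0.98 ± 0.290 (SE) apart on the log2 scale by edgeR (adjusted p = 0.752). In experiment 2 these were 24.7 ± 3.94 and 9.68 ± 1.40 CPM (n = 4 each), 1.35 ± 0.253 (SE) apart (adjusted p = 0.257 by edgeR). Neither experiment alone put a member past the threshold over all targets, where 0% of targets passed in experiment 1 and 0.00706% in experiment 2. The age difference of Cyp4v3 did not differ detectably between the experiments (the fold in experiment 1 was 0.778 of that in experiment 2, 95% interval 0.440 to 1.38). The fold held under each of 27 alternatives, from 1.10 to 1.31 on the log2 scale, but the call held in 14 of them and in 5 of the 14 runs that left out a library, where the adjusted p ran from 0.0181 to 0.0722. Without aged 1.3 the log2 fold change was 1.17 (adjusted p = 0.0478).

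Pltp encodes the phospholipid transfer protein of plasma, which also remodels HDL. The aged libraries held 46.8 CPM at the lowest, 67.7 CPM at the median and 123.6 CPM in aged 1.3. The lowest young library held 22.5 CPM, the median one 35.1 CPM and the highest 43.9 CPM. Again every aged library was above every young one, which among all tested targets was so for 0.12%, and the gap between aged 2.1 (46.8 CPM) and young 2.2 (43.9 CPM) was small. The aged mean of Pltp, 72.0 ± 24.8 CPM, was above the young mean of 33.6 ± 7.55 CPM (SD, n = 7 each) 2.14-fold (95% interval 1.56 to 2.93), with a log2 fold change of 1.10 (SE 0.211) and an adjusted p of 0.065, which misses the threshold. The exact permutation within the experiments gave p = 0.00143, and the experiments taken singly gave log2 differences of 1.39 (experiment 1) and 0.87 (experiment 2). Without aged 1.3, its highest library, Pltp had a smaller fold, 0.90 on the log2 scale, a smaller SE (0.159), and an adjusted p of 0.0499.

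**Figure D2:**
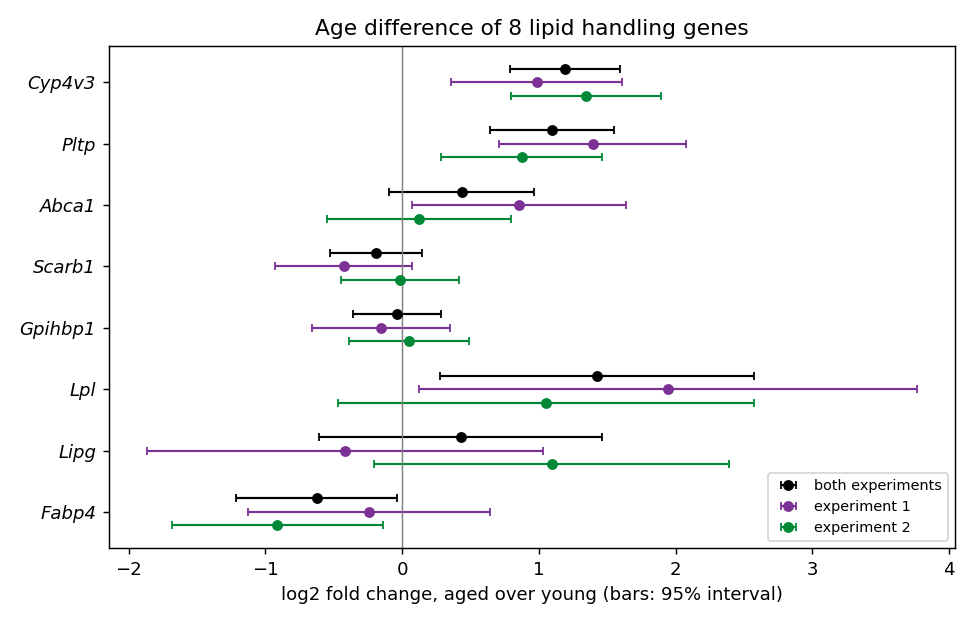
Log2 fold change of aged over young (horizontal axis) with its 95% interval for 8 lipid handling genes, over both experiments (black), in experiment 1 (purple) and in experiment 2 (green). The intervals of Cyp4v3 and Pltp lie above 0 in all 3 fits, while Lipg and Gpihbp1 have opposite signs in the 2 experiments.

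RefSeq promoter sequence is shown for 3 of the 9 genes, Cyp4v3, Pltp and Abca1, as the 250 bases before the annotated start (GRCm38.p6, minus strand for each, 5′ to 3′). These genes were not chosen for their age difference. The ages of Cyp4v3 and Pltp separate, and those of the efflux gene Abca1 overlap. Capitals mark the GC box GGGCGG on either strand.
Cyp4v3 (chr8:45333164-45333413): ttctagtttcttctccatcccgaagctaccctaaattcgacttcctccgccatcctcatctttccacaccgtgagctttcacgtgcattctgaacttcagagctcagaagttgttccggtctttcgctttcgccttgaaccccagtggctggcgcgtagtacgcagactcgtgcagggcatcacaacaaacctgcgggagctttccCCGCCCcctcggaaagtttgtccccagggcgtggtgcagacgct
Pltp (chr2:164857709-164857958): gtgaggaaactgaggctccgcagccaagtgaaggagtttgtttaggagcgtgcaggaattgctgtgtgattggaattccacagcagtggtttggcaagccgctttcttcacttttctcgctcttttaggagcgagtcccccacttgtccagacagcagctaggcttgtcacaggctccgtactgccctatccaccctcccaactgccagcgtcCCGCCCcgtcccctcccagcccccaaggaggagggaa
Abca1 (chr4:53159896-53160145): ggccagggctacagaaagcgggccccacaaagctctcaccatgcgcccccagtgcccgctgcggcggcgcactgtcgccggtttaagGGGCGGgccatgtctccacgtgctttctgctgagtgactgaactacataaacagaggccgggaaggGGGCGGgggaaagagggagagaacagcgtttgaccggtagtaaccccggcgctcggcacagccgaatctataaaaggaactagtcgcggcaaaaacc
The GC box letters occur in all 3, as in 33% of 32536 promoter windows of the same length. The E-box CACGTG lies in the windows of Cyp4v3 and Abca1 and in 6.04% of all windows. Abca1 also holds TATAAA (12.3% of all). The exact letters of the nuclear receptor half-site AGGTCA (14% of all) were found in none of the 3 on either strand. Nor were those of the antioxidant response element TGACNNNGC (10.2% of all). GC content was 55.6% for Cyp4v3, 57.6% for Pltp and 61.6% for Abca1, against a median of 52.4%. A match is a run of letters and not a measured site. A site whose letters differ from those searched would be missed, so no match does not mean no site.

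Abca1 encodes the transporter that starts HDL formation. Its means lay further apart between the experiments than between the ages. The aged mean was 57.7 ± 6.00 CPM in experiment 1 and 100.9 ± 27.0 CPM in experiment 2, beside young means of 31.9 ± 7.90 and 92.5 ± 42.6 CPM. Aged libraries ran from 53.1 through 65.8 to 131.2 CPM and young libraries from 25.03 through 41.5 to 143.9 CPM, so the aged range lay inside the young one. Within experiment 1 the 3 aged libraries were all above the 3 young ones (adjusted p = 0.752 by edgeR). The share of all targets that separate so within experiment 1 was not counted. Over both experiments the fold was 1.35 (95% interval 0.935 to 1.96, adjusted p = 0.888; log2 fold change 0.43, and 0.37 without aged 1.3). Its log2 fold changes, 0.86 (experiment 1) and 0.12 (experiment 2), did not differ detectably (difference −0.73, 95% interval −1.76 to 0.30).

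Scarb1, the HDL receptor gene, had an aged mean of 295.5 ± 45.0 CPM beside a young mean of 337.7 ± 80.3 CPM. The aged libraries ran from 231.3 through 294.4 to 381.1 CPM and the young from 244.9 through 364.5 to 449.8 CPM. Only aged 1.3 lay below every young library. The fold of aged over young was 0.876, with a 95% interval of 0.695 to 1.11 that holds both a fall and a small rise (adjusted p = 0.9996). The log2 fold change was −0.19, and −0.13 without aged 1.3. It was −0.43 in experiment 1 (adjusted p = 0.86 by edgeR) and −0.01 in experiment 2. These did not differ detectably (difference 0.41, 95% interval −0.25 to 1.07). Without young 2.2 and aged 2.4 it was −0.33 (adjusted p = 0.375 by edgeR).

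Gpihbp1 had the closest means of the 8 genes. The aged mean was 1657 ± 361.1 CPM and the young mean 1702 ± 190.4 CPM, a fold of 0.976 (95% interval 0.780 to 1.22, adjusted p = 0.9996). In the aged group 5 libraries lay between 1761 and 2004 CPM, while aged 1.3 (1173 CPM) and aged 2.4 (1113 CPM) were below every young library, the lowest of which held 1522 CPM. The sign of its small log2 fold change (−0.04) turned to 0.05 without aged 1.3 and to 0.04 without aged 2.4. Its interval excludes a change of the size of Cyp4v3 or Pltp.

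Lpl, the gene of the lipase that GPIHBP1 anchors, is itself made by macrophages and fat cells more than by endothelium. Its target drew 2 to 65 reads per library. Aged libraries held 1.04 CPM at the lowest, 2.86 at the median and 7.49 in aged 2.2, and young libraries 0.174, 1.40 and 3.08 CPM. The groups overlapped, with 3 of 7 aged libraries above every young one. The fold was 2.68 with a wide 95% interval of 1.21 to 5.94 (log2 fold change 1.42, SE 0.535, adjusted p = 0.643; exact permutation p = 0.0329). Without aged 1.3 the log2 fold change was 1.12 (adjusted p = 0.972).

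Lipg, the gene of endothelial lipase, drew 3 to 36 reads per library, or 0.349 to 2.64 CPM. The aged mean was 1.40 ± 0.572 CPM and the young mean 1.02 ± 0.790 CPM, and its highest library was young 1.1. Experiment 1 gave a log2 fold change of −0.42 and experiment 2 one of 1.10. The sign in experiment 1 rests on young 1.1 (2.64 CPM, where the other young libraries of that experiment held 0.349 and 0.934 CPM): without it the value was 0.59 in experiment 1, and 0.90 over both experiments (adjusted p = 0.99) against 0.43 with it. Over both experiments the 95% interval of the fold ran from 0.657 to 2.75 (adjusted p = 0.9996).

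Fabp4 encodes a carrier that takes fatty acids across the cytoplasm of fat cells, macrophages and capillary endothelium. The aged libraries held 178.5, 264.7 and 525.5 CPM at the lowest, the median and the highest, and the young libraries 343.4, 367.0 and 849.3 CPM. In the aged group 4 libraries lay below every young one, and aged 1.3 was the highest. Mean levels were 301.2 ± 128.9 and 476.4 ± 188.4 CPM, 1.54-fold lower in aged LSECs (95% interval 1.02 to 2.32; log2 fold change −0.62, SE 0.275, adjusted p = 0.708; exact permutation p = 0.0329). The log2 fold change was −0.24 in experiment 1, −0.91 in experiment 2, −0.91 without aged 1.3 (adjusted p = 0.17) and −0.46 without young 2.4, the library with the highest level. In experiment 1 the 3 young libraries spread little, with an SD of 11.4 CPM around 355.3 CPM. Of 6 fat cell markers, 4 were under 1 CPM in every library. The summed level of all 6 ran from 0.215 to 12 CPM in aged and from 0.815 to 11.4 CPM in young libraries, with young 2.4 at 2.69 CPM. That sum rests largely on Adrb3, which drew more reads than any other of the 6 in every library (15 in young 2.4). Adrb3 had 135 reads in aged 1.1, where the share of receptor reads was largest (3.18%). It had 3 in aged 2.3, where that share was smallest (0.146%). Young 2.4 held the most reads of Adipoq (4) and Plin1 (5), but 0 of Lep and Cidea and 1 of Retn, of which young 1.1 held 22. The part of fat cell RNA in the Fabp4 level was not tested.

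Markers of Kupffer cells and macrophages, which are known to express Lpl, Abca1 and Pltp, moved with age in these libraries. All 8 tested of the 12 listed were higher in aged LSECs, with a median log2 fold change of 1.71 and 0 past the threshold. By edgeR 7 of them had an unadjusted p under 0.05, where 3.43% of all targets were higher at that p. Without aged 1.3, 7 of the 8 were higher (median 1.46), and the median in experiment 1 was then 0.67. The summed level of the 12 listed ran from 40.3 to 349 CPM in aged and from 39.6 to 123 CPM in young libraries. Among them C1qb had means of 29.8 CPM (aged) and 24.3 CPM (young), Vsig4 27.4 and 7.68 CPM and Clec4f 26.2 and 8.36 CPM. Markers of other leukocytes were mostly higher in aged LSECs too, with 0 past the threshold. They were 5 of 5 for B cells (median log2 fold change 3.07) and 5 of 5 for monocytes and neutrophils (1.65). For T and NK cells 5 were higher and 1 lower (0.77). Without aged 1.3 these medians were 1.85, 1.16 and 0.15. In this bulk RNA, more cells of a type and more RNA per cell cannot be told apart. Aged 2.4, with a macrophage sum of 40.3 CPM, was at the level of the lowest young libraries. In that library Lpl was at 1.04 CPM, inside the young range, and Abca1 at 65.8 CPM. Pltp was at 71.0 CPM and Cyp4v3 at 23.5 CPM there, above every young library. At the other end aged 1.3, highest in the macrophage sum, was also highest in Pltp, and young 1.3, the highest young library in that sum (123 CPM), held the most Pltp of the young libraries of its experiment (35.1 CPM) and Cyp4v3 at 8.80 CPM.

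Over all 14 libraries, with the mean of each experiment taken out, log2 CPM followed the mean log2 level of the macrophage markers most closely for Lpl (Pearson's r = 0.905, Spearman's rho = 0.868). The permutation p within the experiments was 2e-05 for r and 0.00013 for rho (0.00016 and 0.00104 adjusted over the 8 relations computed). Cyp4v3 had r = 0.696 and rho = 0.697 (permutation p = 0.0117 and 0.0107, adjusted 0.0312 and 0.0428), Pltp r = 0.663 and rho = 0.631 (permutation p = 0.0123 and 0.0224, adjusted 0.0312 and 0.0596) and Abca1 r = 0.657 and rho = 0.596 (permutation p = 0.0156 and 0.0352, adjusted 0.0312 and 0.0705). The other 4 genes had adjusted permutation p above the threshold for both measures. Among them Scarb1 had a negative relation (r = −0.56 and rho = −0.433, permutation p = 0.0461 and 0.139, adjusted 0.0738 and 0.185). Its r was −0.953 in experiment 1 and −0.258 in experiment 2. The markers, Lpl, Cyp4v3, Pltp and Abca1 were all higher in aged libraries, so the pooled r holds the age difference. With the mean of each age in each experiment taken out, r was 0.899 for Lpl, 0.574 for Abca1, 0.27 for Pltp and 0.225 for Cyp4v3. For the others it was −0.576 (Scarb1), 0.304 (Lipg), 0.228 (Fabp4) and 0.192 (Gpihbp1). Within experiment 1 alone r was 0.958 for Lpl, 0.907 for Pltp, 0.658 for Cyp4v3 and 0.656 for Abca1, and within experiment 2 it was 0.885, 0.472, 0.717 and 0.658 in the same order. Leaving out aged 2.2 and young 2.2, the libraries farthest from the median of the markers, gave r of 0.939, 0.681, 0.616 and 0.592 in that order.

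With the mean log2 level of these markers added to the model, an alternative chosen after the values were seen, the log2 fold change was 1.10 for Cyp4v3 (SE 0.259, adjusted p = 0.509) and 0.90 for Pltp (SE 0.282, adjusted p = 0.769). It was −0.08 for Lpl and −0.002 for Abca1. A term for all leukocyte markers, those of macrophages among them, gave 1.135 for Cyp4v3 and 0.843 for Pltp. With that term Lpl was at 0.444 and Abca1 at 0.334. The markers themselves differ between the ages, so either term also takes up part of the age difference. The part of macrophage RNA, or of other leukocyte RNA, in each level was not tested beyond these values.

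**Figure D3:**
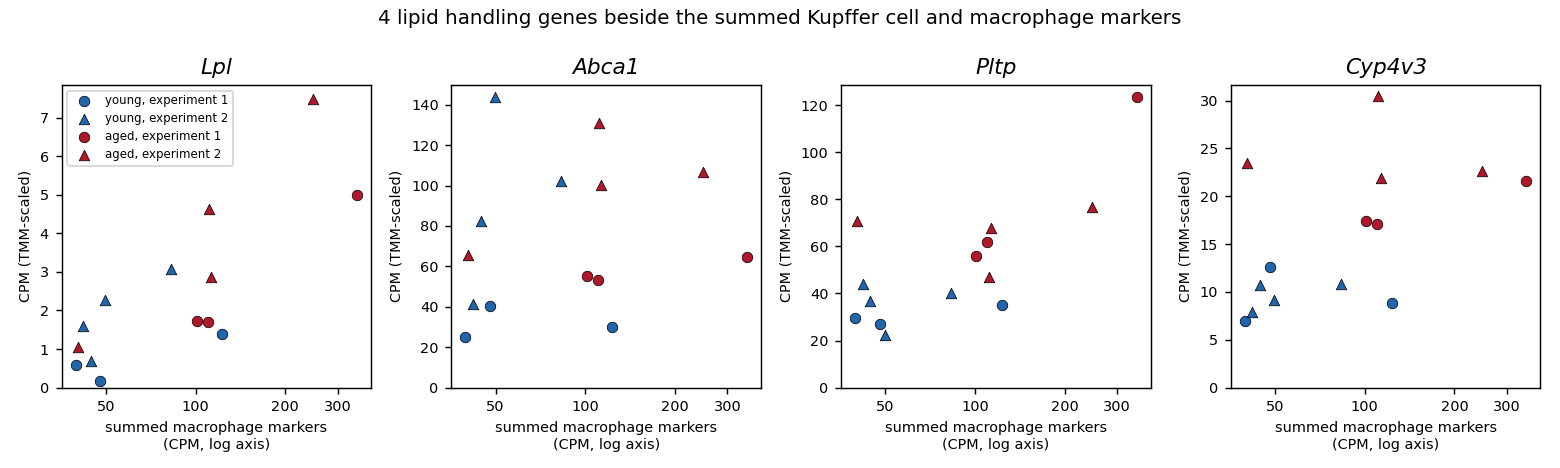
CPM after TMM scaling of Lpl, Abca1, Pltp and Cyp4v3 (vertical axes, starting at 0) against the summed CPM of 12 Kupffer cell and macrophage markers without scaling (horizontal axis, log scale), 1 point per library. Aged 2.4, the red triangle at 40.3 CPM on the horizontal axis, lies among the young libraries for Lpl and above them for Pltp and Cyp4v3.

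Over the 14 libraries, with the mean of each experiment taken out and the age difference left in, the gene whose log2 CPM followed Cyp4v3 most closely was Dkk3, which encodes a secreted Dickkopf family protein (Pearson's r = 0.981, and 0.886 with the mean of each age in each experiment taken out). Apba1 (0.938) and Klf12 (0.901) came next. For Pltp these were Ppp3cc, a calcineurin subunit (0.911), Cyp4f13, another fatty acid hydroxylase of the CYP4 family (0.899), and Pigr, the polymeric immunoglobulin receptor (0.860). For Scarb1 they were Egln1 (0.938), Bclaf1 (0.929) and Ppp4r3a (0.898), for Gpihbp1 Tmem241 (0.974), S100a16 (0.955) and Npdc1 (0.952), for Fabp4 H1f5 (0.870), Smo (0.853) and Fdx1 (0.847), and for Abca1 Mbtps1 (0.883), Topors (0.880) and Zhx3 (0.876). These are the 3 highest r of all targets of at least 10 CPM, over libraries that share age, depth and admixture, and are given as a description. Lpl and Lipg were too low for this ranking.

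The wider set of lipid genes was described from 8 lists of 153 genes, 126 of them tested. Of the 126, 0 passed in either direction by edgeR, where 0.162% of all targets passed, while 16 (12.7%) had an unadjusted p under 0.05, against 6.77% of all targets. Without aged 1.3 these shares were 7.94% (10 genes) and 5.12%. In several lists that library sets the balance of higher and lower genes, and each count is followed by the count without it. Over both experiments DESeq2 called 1, the cholesteryl ester hydrolase gene Nceh1.

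Among 11 tested lipoprotein receptor genes 6 were higher and 5 lower in aged LSECs (median log2 fold change 0.10), or 7 and 4 without aged 1.3 (median 0.03). Lrp1, an endocytic receptor for lipoprotein remnants that macrophages and hepatocytes also use, was at 14.1 ± 8.99 against 5.84 ± 3.90 CPM (adjusted p = 0.532). Sorl1 spread from 0.852 to 52.9 CPM within the aged group (log2 fold change 2.72, and 1.503 without aged 1.3), and Lsr was below 5 CPM on average at both ages. Mylip, the ligase gene whose product marks the LDL receptor for breakdown, and Scarb2, which encodes a lysosomal membrane protein, had log2 fold changes of 0.11 and 0.10.

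Of 19 lipases and lipase regulators 12 were higher and 7 lower with and without aged 1.3, with a median of 0.31 with it and 0.02 without. Pnpla2, the triglyceride lipase of lipid droplets, was at 112.6 ± 22.8 against 82.1 ± 16.6 CPM, 1.36-fold (adjusted p = 0.518). Furin, a protease that cuts lipases and their inhibitors, was 1.35-fold higher (adjusted p = 0.671). Lipc, the hepatocyte's own lipase, reached 16.5 CPM in 1 aged library against a young maximum of 2.48 CPM, and its log2 fold change was 1.48 with aged 1.3 and 0.58 without. Sel1l, needed for lipase to leave the endoplasmic reticulum, and the lysosomal lipase gene Lipa had log2 fold changes of −0.10 and −0.08.

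Of 14 fatty acid carrier and activation genes 9 were higher and 5 lower (median 0.19), but 5 higher and 9 lower without aged 1.3 (median −0.13). Cd36, the fatty acid translocase, was at 789.8 ± 378.8 against 982.2 ± 291.7 CPM, with a spread in the aged group from 219.9 to 1211 CPM (adjusted p = 0.9996). Dbi, the acyl-CoA binding protein gene, had a log2 fold change of 0.15, Acsl4 −0.13, Acsl3 −0.42, and Fabp7, at 3.20 and 0.969 CPM, 1.62.

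Of 23 genes of sterol and phospholipid transfer and efflux 14 were higher and 9 lower (median 0.16), or 13 and 10 without aged 1.3 (median 0.03). Nceh1, which frees cholesterol from its esters before efflux, was 1.41-fold higher, at 44.2 ± 7.61 against 31.3 ± 7.84 CPM (adjusted p = 0.46). Gramd1c, an endoplasmic reticulum sterol carrier gene, was 1.58-fold lower (13.4 ± 3.81 against 20.9 ± 6.42 CPM, adjusted p = 0.547). Cyp27a1 averaged under 3 CPM at both ages (log2 fold change 1.16). Abcg1, which passes cholesterol to mature HDL and works beside ABCA1, was at 258.5 ± 77.6 against 280.6 ± 80.7 CPM (log2 fold change −0.11), and the lysosomal sterol carrier gene Npc2 had a log2 fold change of −0.03.

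In the list of CYP4 relatives of Cyp4v3 and other oxylipin genes 15 of 16 had a log2 fold change above 0, with a median of 0.37, and 0 passed. The count was 14 of 16 in experiment 1 (median 0.59), 10 of 16 in experiment 2 (median 0.10) and 11 of 16 without aged 1.3 (median 0.24). Cyp4a10, Cyp4a14, Cyp4f15 and Ephx2 were below 0 both in experiment 2 and without aged 1.3. Hepatocyte markers moved likewise, with 9 of 9 higher in experiment 1, 3 of 9 in experiment 2 and 3 of 9 without aged 1.3. Cyp4f13 was 1.39-fold higher, at 39.6 ± 6.10 against 28.4 ± 3.61 CPM (adjusted p = 0.408), and Cyp2j9, an arachidonic acid epoxygenase gene, 1.34-fold (12.7 ± 1.20 against 9.49 ± 2.25 CPM, adjusted p = 0.708). Cyp4f18, known from neutrophils, spread from 0.417 to 15.2 CPM among aged libraries. The summed markers of monocytes and neutrophils ran from 20.3 to 1150 CPM in aged and 23.5 to 278 CPM in young libraries, with 5 of 5 tested markers higher in aged LSECs, and the part of both cell types in this list was not tested. Cyp4b1, at 633.0 ± 157.7 against 539.2 ± 77.6 CPM, and the fatty aldehyde dehydrogenase gene Aldh3a2 had log2 fold changes of 0.23 and 0.09.

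Genes of the nuclear receptors and sterol regulators upstream of these pathways went both ways, with 8 of 14 higher, a median of 0.02 and 2 at an unadjusted p under 0.05, Nr1h3 and Srebf2. Without aged 1.3, 9 of 14 were higher (median 0.06). Nr1h3, the liver X receptor that switches on Abca1 and Pltp in many tissues, had an aged mean of 8.94 ± 5.76 CPM beside a young mean of 5.03 ± 1.10 CPM (log2 fold change 0.78, adjusted p = 0.715, and 0.48 without aged 1.3). Srebf2, the regulator of sterol synthesis, was at 37.2 ± 17.0 against 49.2 ± 9.41 CPM, −1.04 on the log2 scale in experiment 1 and −0.12 in experiment 2 (adjusted p = 0.643 over both). Pparg, whose product drives Fabp4 in fat cells, was at 10.1 ± 4.58 against 15.4 ± 13.6 CPM (adjusted p = 0.9996). The shared partners Rxra and Rxrb had log2 fold changes of −0.03 and −0.07.

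Among 16 genes of lipid droplets and fatty acid oxidation 12 were higher and 4 lower, and none had an unadjusted p under 0.05 (median 0.07), or 9 and 7 without aged 1.3 (median 0.01). The droplet coat gene Plin2 was at 399.7 ± 141.9 against 368.6 ± 82.1 CPM, and Pdk4, which spares glucose when fat is burned, at 135.4 ± 30.7 against 145.1 ± 49.5 CPM. Hadha, Acadl and Dgat2 had log2 fold changes of −0.20, 0.13 and 1.15, the last of which was −0.09 without aged 1.3. Of 13 sterol synthesis genes 7 were higher and 6 lower (median 0.005). The experiments went opposite ways, with 3 of 13 higher in experiment 1 (median −0.38) and 10 of 13 in experiment 2 (median 0.31), and 5 of 13 were higher without aged 1.3. The difference between the experiments was not tested for the list. Hmgcs1, an early enzyme of the pathway, had a log2 fold change of −0.08, Dhcr7, the last step to cholesterol, −0.36 (adjusted p = 0.673), Sc5d 0.32 and Nsdhl 0.19.

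**Figure D4:**
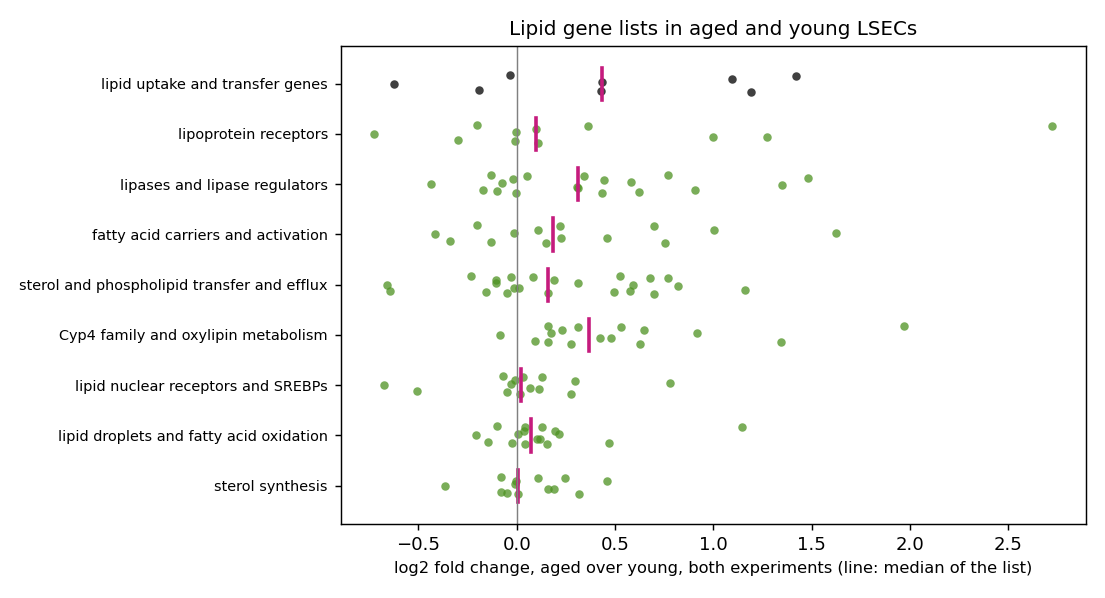
Log2 fold change of aged over young over both experiments (horizontal axis) for the 8 lipid uptake and transfer genes (black) and the tested genes of 8 wider lipid lists (green), 1 point per gene, with a line at each list's median. The medians of the wider lists lie between 0.005 and 0.37.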

How the data were processed

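Per the labels' protocols, RNA was read by Ion AmpliSeq, a targeted assay with 1 short amplicon per target. The deposited values are raw counts of reads per RefSeq target, and the submitters' processing notes name HTSeq 0.6.0 and DESeq2 1.18.1. For the aligner, build and strand setting, the sources used here give nothing. Amplicons differ in efficiency, so levels are not compared between genes. The 5 bookkeeping entries (1.24 to 3.04% of reads) were left out. Names came from RefSeq GRCm38.p6 (18128 targets with version, 4324 without) and GENCODE (110), and 1368 stayed unmatched.

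Counts were fitted in R 4.3.3 with edgeR 4.0.16 (filterByExpr, TMM, quasi-likelihood F test, experiment as a term), with Benjamini-Hochberg adjustment over 14168 targets and a threshold of 0.05. A model of 4 means gave each experiment's contrast and their difference. Intervals are 95%. Exact two-sided permutations of log2 CPM (prior count 2) kept the experiments, 1400 in all, and relations to the macrophage markers used 100000 random ones. The steps were tested on simulated counts. Members, lists and tests were chosen with earlier results of these data known. Genes named beyond the members are, per list, the 3 with the smallest p and the 2 with the highest mean, and the 3 most alike each member. One gene that this rule names is not reported here. Alternatives used DESeq2 1.42.0 and limma 3.58.1 among others.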

Additional observations from a re-analysis of the deposited data

How the results depend on the processing

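Over both experiments 1 of the 8 genes, Cyp4v3, passed. With DESeq2, and with a term for receptor reads, 2 passed, Cyp4v3 and Pltp (adjusted p = 0.000880 and 0.0164 for Pltp). The number was 0 with a leukocyte marker term, with the Kupffer marker term, with aged 1.1 and aged 1.2 summed (the pair most alike) and with the replicate block, and 0 to 2 when a library was left out in turn: 2 without aged 1.3, 0 without aged 1.1, 1.2, 2.1, 2.2 or 2.3 or young 1.1, 1.3, 2.3 or 2.4, and 1 without the other 4. The replicate block gave log2 fold changes of 1.21 for Cyp4v3 and 1.07 for Pltp. Same-numbered libraries did not all deviate together (r from −0.385 to 0.776), and in 3 of 7 cases the same number was the best match. DESeq2 called 2 members in experiment 1 and 1 in experiment 2, and the receptor term called 1 in experiment 2. Of the wider lipid genes, DESeq2 called 1 and so did the fit with no TMM, Nceh1 each time, against 0. The number of all targets called was 23 (11 higher and 12 lower), and 46 with no TMM (28 higher and 18 lower), 146 with DESeq2, 59 with the receptor term, 36 without young 2.2 and aged 2.4, 12 with no experiment term, 5 with the block, 4 with aged 1.1 and aged 1.2 summed, 3 with the leukocyte term, 2 with the Kupffer term and 4 to 29 with 1 library left out. The sign of Gpihbp1 turned with no TMM (0.0062), without young 2.2 and aged 2.4 (0.018), without young 1.2 (0.013), without aged 2.4 (0.036), and in leave-one-out runs that ranged from −0.098 to 0.049. That of Scarb1 turned with the leukocyte term (0.0496) and the Kupffer term (0.0725), and those of Lpl (−0.0762) and Abca1 (−0.0018) with the Kupffer term. The cause was not tested. The signs of Cyp4v3, Pltp, Fabp4 and Lipg held in each alternative that gave them a value. A prior count of 0.5 in place of 2 left each permutation on its side of 0.05. Lpl (2 to 65 reads) and Lipg (3 to 36 reads) were thinly read, and the part of counting error in their spread was not tested.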
